A study of Mus musculus with 4 samples.

Results

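The 10 genes described here are the transcriptional coactivators Yap1 and Wwtr1 (TAZ), their DNA-binding partner Tead1, the feedback and scaffold genes Lats2, Amotl2 and Ajuba, and the targets Ctgf, Cyr61, Ankrd1 and Axl. They were chosen by name, as the 10 of 31054 rows of the count matrices that carry these symbols, and each symbol occurred in all 4 matrices. The matrices came from droplet single-cell RNA sequencing of live cells sorted from mouse skin tumours, with 2 control libraries and 2 libraries from mice given NP137, an antibody against the secreted guidance protein netrin-1. All mice carried Lgr5CreER, KrasLSL-G12D, p53fl/fl and Rosa26-YFP+/+, a combination called LKPR. Tamoxifen, given as 4 injections of 2.5 mg from postnatal day 28, switches on Cre in cells that express Lgr5, which in skin are mainly hair follicle stem cells, and YFP then marks the recombined cells and their descendants. The appearance of tumours was followed by eye and touch, from 7 to 9 weeks on, and mice were killed by tumour size or signs of distress. In the NP137 groups injections of 10 mg/kg began 4 weeks after the tamoxifen and were repeated at intervals of 2 days until death, and the labels name no agent for the control mice. The labels do not say whether a library is a separate animal, so each p-value below measures only the spread between these 4 libraries.

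YAP and TAZ do not bind DNA themselves and reach their targets through TEAD proteins. The Hippo kinases LATS1 and LATS2 phosphorylate them and keep them out of the nucleus, and cell spreading, tension and growth factor signals release them. In skin this pathway is known for maintaining basal keratinocytes and hair follicle stem cells, and it is active in many squamous and spindle-like tumours.

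In GRCm38, Yap1 lies at chr9:7931999-8004596, Wwtr1 at chr3:57455649-57575910, Tead1 at chr7:112679318-112906807, Lats2 at chr14:57689662-57758388 and Amotl2 at chr9:102716672-102733418. Ajuba lies at chr14:54567472-54577558, Ctgf at chr10:24595442-24598683, Cyr61 at chr3:145646976-145649981, Ankrd1 at chr19:36111961-36120099 and Axl at chr7:25757273-25788705. All 10 are annotated as protein-coding genes and the counts are per gene.

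The 250 bases before the start of transcription were taken from RefSeq (GRCm38.p6), where 8 of the 10 genes had a window. TEAD proteins bind a core motif, searched here as GGAATG on both strands, and AP-1 factors, which often sit beside them, were searched as TGANTCA on both strands. The TEAD letters stood in a window of 7 of the 8 genes, all but Lats2, against 12.6% of the 32851 windows of all genes. The AP-1 letters stood in none of the 8, against 6.75% of all windows. The windows of 4 genes are shown because these genes went different ways in the tumour cells below, while all 4 hold the motif. Capitals mark the TEAD letters, GGAATG or, on the other strand, CATTCC. All 4 genes lie on the minus strand, and each window is printed 5' to 3' on the strand of the gene. The windows are chr3:145649986-145650235 for Cyr61 (listed as Ccn1), chr7:25788734-25788983 for Axl, chr14:54577662-54577911 for Ajuba and chr9:8004597-8004846 for Yap1.
Cyr61: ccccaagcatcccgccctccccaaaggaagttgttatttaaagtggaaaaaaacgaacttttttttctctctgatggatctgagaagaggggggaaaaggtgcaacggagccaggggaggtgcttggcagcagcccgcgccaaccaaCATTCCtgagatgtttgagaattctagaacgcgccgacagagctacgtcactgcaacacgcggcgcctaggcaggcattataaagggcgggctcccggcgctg
Axl: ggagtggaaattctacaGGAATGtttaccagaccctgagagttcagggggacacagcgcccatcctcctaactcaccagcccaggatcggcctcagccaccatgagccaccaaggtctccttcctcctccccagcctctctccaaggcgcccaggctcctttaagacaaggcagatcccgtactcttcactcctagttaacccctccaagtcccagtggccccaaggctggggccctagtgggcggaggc
Ajuba: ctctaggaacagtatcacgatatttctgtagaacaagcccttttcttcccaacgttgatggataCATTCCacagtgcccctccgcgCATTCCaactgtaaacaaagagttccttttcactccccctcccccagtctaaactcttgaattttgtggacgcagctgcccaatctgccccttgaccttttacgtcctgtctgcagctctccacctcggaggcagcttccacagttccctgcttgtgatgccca
Yap1: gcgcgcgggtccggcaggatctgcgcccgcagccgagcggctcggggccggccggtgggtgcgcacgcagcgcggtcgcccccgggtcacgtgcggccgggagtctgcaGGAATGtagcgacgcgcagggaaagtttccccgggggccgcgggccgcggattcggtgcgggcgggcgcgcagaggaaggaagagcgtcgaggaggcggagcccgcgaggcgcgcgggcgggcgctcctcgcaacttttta
The last base of the motif lies 98 bases before the start in Cyr61, 228 bases before it in Axl and 136 bases before it in Yap1, and Ajuba holds 2 matches, at 181 and 159 bases. A match describes the letters only, and binding was not measured.

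The libraries held 8328 to 18146 barcodes and 69517664 to 149021188 UMIs (unique molecular identifiers, each counting 1 RNA molecule), and 5301 to 14513 cells per library passed the filters. Any 2 libraries shared 24 to 86 barcodes, at most 0.578% of a library. Of 29 clusters, made without the 10 genes and without their pathway lists, 6 had a YFP UMI in 68.2% to 96.7% of cells and are called tumour cells here; the next cluster had 30.9%. Tumour cells numbered 4614 and 1341 in control 1 and control 2, and 3176 and 943 in NP137 1 and NP137 2. By 12 epithelial and 11 mesenchymal state genes, 3 of these clusters lay on the epithelial side and 3 on the mesenchymal side. The states split nearly as the treatment did, with 396 epithelial-side and 4218 mesenchymal-side cells in control 1, 23 and 1318 in control 2, 3055 and 121 in NP137 1, and 933 and 10 in NP137 2. The tumour cells of each library also fell mostly into clusters of their own: clusters 3 and 18 in control 1, cluster 15 in control 2, clusters 5 and 24 in NP137 1 and cluster 19 in NP137 2. Cells with Xist but no Y-linked UMI made up 64.4%, 0.302%, 27.7% and 68.0% of control 1, control 2, NP137 1 and NP137 2, and the reverse held for 0.0191%, 51.4%, 16.7% and 0%. The names of the deposited files carry the same date for control 1 and NP137 1 and other dates for the other libraries, and what the dates mark is not stated.

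In tumour cells 8 of the 10 genes were lower in both NP137 libraries than in both controls, Ajuba was higher in both, and Yap1 overlapped between the groups. No member passed the test at an adjusted p of 0.05 (edgeR's quasi-likelihood test, Benjamini-Hochberg over 14146 genes), and in all 1 gene did, 0.00707%. Values that do not overlap were common: 40.1% of all genes were lower in both NP137 libraries and 18.3% were higher. At an unadjusted p under 0.05, 8 members were lower and 1 was higher, against 12.8% and 10.8% of all genes. The median log2 difference was -1.53 over the 10 members and -0.03 over all genes tested. Levels below are CPM (counts per 1e6), the UMIs of a gene scaled to the same total of UMIs of the class in each library.

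Ctgf and Cyr61 encode secreted matricellular proteins. Ctgf (CCN2), which binds growth factors and matrix and is the classical YAP target, stood at 149.5 and 104.9 CPM in control 1 and control 2 and at 18.5 and 12.8 CPM in NP137 1 and NP137 2. Its log2 difference was -2.79 ± 0.34 (SE, n = 2 libraries per group, adjusted p = 0.064 with edgeR). T or NK-like cells, which should not make Ctgf, held 10.5 to 20.4 CPM, a range that takes in both NP137 values. Those cells were shallower than the tumour cells, with medians of 979 and 1799 UMIs in NP137 1 and NP137 2 against 8660 and 18411. The part of background in the tumour values was not tested. With no doublets removed the Ctgf difference was -1.50, and with tumour cells chosen by a YFP UMI whatever their cluster it was -0.80. Cyr61 (CCN1), its close relative, stood at 476.3 and 332.6 CPM in the controls and at 120.9 and 46.4 CPM with NP137, a log2 difference of -2.05 ± 0.51 (SE, n = 2 per group, adjusted p = 0.11 with edgeR). The T or NK-like cells held 31.5 to 94.3 CPM of Cyr61, with the 94.3 CPM in control 1. Among the treated libraries only the NP137 1 tumour value lay above that whole range. In NP137 2 itself the T or NK-like cells held 31.5 CPM (exact Poisson interval 24.5 to 39.9, counting error only). That was below the 46.4 CPM (43.4 to 49.7) of the NP137 2 tumour cells.

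Ankrd1, a nuclear cofactor and stress-response target, was a matter of 1 library. It stood at 41.2 CPM in control 1, from 2082 UMIs, and at 0.923 CPM in control 2, 0.105 CPM in NP137 1 and 0.770 CPM in NP137 2, from 31, 3 and 14 UMIs. Its log2 difference of -5.43 ± 2.06 (SE, n = 2 per group, adjusted p = 0.21 with edgeR) was -0.78 without control 1. T or NK-like cells held 0 to 13.9 CPM of Ankrd1, a range that takes in the other 3 libraries. Axl, a receptor tyrosine kinase linked to invasive tumour states, stood at 272.9 and 252.5 CPM in the controls and at 102.2 and 42.3 CPM with NP137, a log2 difference of -1.64 ± 0.44 (SE, n = 2 per group, adjusted p = 0.12 with edgeR). T or NK-like cells held 11.6 to 63.8 CPM of Axl, with the 63.8 CPM in control 1. The NP137 1 value of tumour cells lay above that range and the NP137 2 value within it. In NP137 2 itself the T or NK-like cells held 11.6 CPM (exact Poisson interval 7.50 to 17.1, counting error only). That was below the 42.3 CPM (39.3 to 45.4) of the NP137 2 tumour cells.

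Among the scaffold and kinase genes, the directions split. Amotl2, an angiomotin that holds YAP in the cytoplasm and is itself a target, stood at 19.1 and 24.4 CPM in the controls and at 7.62 and 5.94 CPM with NP137. Lats2, the kinase that YAP induces as feedback, stood at 21.9 and 23.4 CPM against 6.18 and 8.58 CPM. These log2 differences were -1.43 ± 0.33 for Amotl2 (SE, n = 2 per group, adjusted p = 0.10 with edgeR) and -1.36 ± 0.35 for Lats2 (adjusted p = 0.12). T or NK-like cells held 18.1 to 59.6 CPM of Lats2, above the level of the treated tumour cells. Ajuba, a LIM protein of cell junctions that inhibits LATS kinases, went the other way, with 24.6 and 20.9 CPM in the controls and 49.8 and 41.8 CPM with NP137, a log2 difference of 1.25 ± 0.26 (SE, n = 2 per group, adjusted p = 0.092 with edgeR).

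The coactivators and their partner did not move together either. Tead1 stood at 116.9 and 139.9 CPM in the controls and at 39.2 and 22.3 CPM with NP137, a log2 difference of -1.82 ± 0.33 (SE, n = 2 per group, adjusted p = 0.081 with edgeR). Wwtr1 stood at 229.3 and 183.5 CPM against 86.2 and 58.05 CPM, a difference of -1.28 ± 0.30 (adjusted p = 0.10). Yap1 stood at 38.7 and 47.2 CPM in the controls and at 46.1 and 26.1 CPM with NP137, and its log2 difference was -0.01 ± 0.33 (SE, n = 2 per group, adjusted p = 0.99 with edgeR). Its treated libraries thus lay on both sides of the lower control value. Between control 1 and NP137 1, whose files share a date, Yap1 and Ajuba were higher with NP137 and the other 8 were lower.

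**Figure D1:**
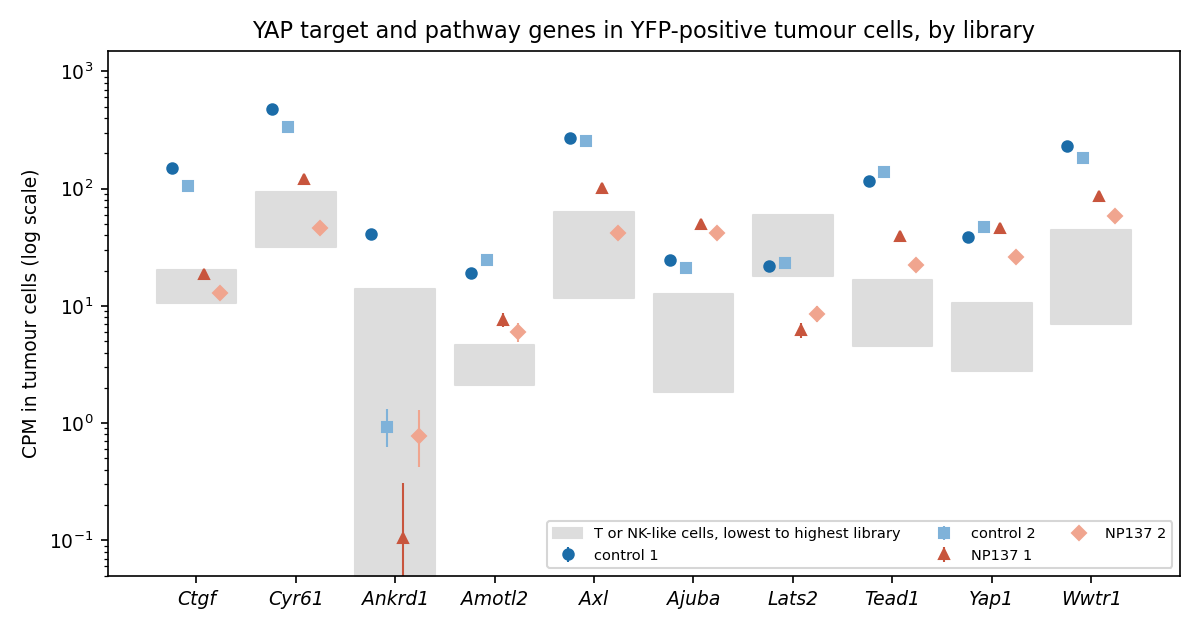
CPM of each gene in tumour cells (log axis) for control 1, control 2, NP137 1 and NP137 2, with exact Poisson 95% intervals that cover counting error only; grey bands span the 4 libraries of T or NK-like cells and for Ankrd1 begin at the bottom of the axis, since its lowest value there is 0. Both NP137 values of Ctgf, 18.5 and 12.8 CPM, lie inside the grey band, while the 4 Yap1 values, 26.1 to 47.2 CPM, lie above it.

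With DESeq2 in place of edgeR 8 members passed, all but Ankrd1 and Yap1, where 16.1% of all genes passed; with no filter on low counts 7 passed, where 5.81% did. The state markers moved with the members. The 11 mesenchymal state genes summed to 13703 and 10183 CPM in the control tumour cells and to 1721 and 705.0 CPM with NP137, and the 12 epithelial state genes summed to 2056 and 496.6 CPM against 16220 and 18973 CPM. A list of 17 genes that enzymatic dissociation induces, such as Fos and Egr1, summed to 13108 CPM in control 1 and to 8597, 8935 and 8221 CPM in control 2, NP137 1 and NP137 2. Control 1 was also the highest in Ctgf, Cyr61, Ankrd1, Axl and Wwtr1, and the part of dissociation in these levels was not tested.

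The wider pathway was mixed in tumour cells. Of 23 other Hippo genes 7 were lower and 3 higher at an unadjusted p under 0.05, with none past the adjusted threshold and a median log2 difference of -0.33. The 3 of smallest p were Dchs1, a protocadherin upstream of the kinases, at -5.44, Amot, a relative of Amotl2, at -3.43, and Ptpn14, a phosphatase that restrains YAP, at -1.85. Of 15 other published YAP targets 8 were lower and 2 higher at an unadjusted p under 0.05, with a median of -1.16. The 3 of smallest p in that list were Tgfb2, a TGF-beta ligand, at -3.04, Rbms3, an RNA-binding protein, at -1.99, and Asap1, a regulator of ARF GTPases, at -1.88. Of 10 genes under serum response factor, 4 were lower and 0 higher at that threshold, with Tagln, a smooth muscle actin-binding protein, at -3.03. All of these lists were written with earlier results of these data known.

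The share of cells with a UMI was lower with NP137 for Ctgf, Cyr61, Axl and Yap1 and higher for Ajuba. After thinning each cell to 2000 UMIs, 19.7% (exact 95% interval 18.5 to 20.9) of 4263 tumour cells of control 1 and 12.4% (10.7 to 14.4) of 1280 of control 2 held a Ctgf UMI. The share was 3.78% (3.12 to 4.53) of 2939 cells in NP137 1 and 2.21% (1.36 to 3.40) of 904 in NP137 2. T or NK-like cells held Ctgf in 1.49% to 5.00% of 33 to 332 cells, a range that takes in both treated tumour shares. How much of those shares is background was not tested. Before thinning the T or NK-like cells had median depths of 1691, 4534.5, 979 and 1799 UMIs in the same order of libraries. Of them 108 of 175, 2 of 82, 382 of 415 and 465 of 797 lay under 2000 UMIs and were left out. The NP137 1 share of Ctgf in these cells is thus 1 of 33 cells, 3.03% (0.077 to 15.8). For Axl the share was 44.0%, 40.3%, 17.0% and 7.74% in that order. T or NK-like cells held it in 1.21% to 10.0%, with the 10.0% in control 2. In NP137 2 itself they held it in 1.21% (0.329 to 3.06), below the tumour share of 7.74% (6.09 to 9.68). For Yap1 the tumour share was 8.59%, 8.91%, 6.91% and 4.76% in the same order of libraries, while its CPM overlapped between the groups. Each set of cells was thinned by 1 random draw, which the intervals do not cover. In NP137 2, 43 of 904 tumour cells held Yap1, and in another draw 49 of the 901 on the epithelial side did. Thinning left out 351, 61, 237 and 39 tumour cells of control 1, control 2, NP137 1 and NP137 2, whose median depths before the loss were 8583, 24715, 8660 and 18411 UMIs. The mean difference in share, NP137 minus control, was -13.045 percentage points for Ctgf, -30.9 for Cyr61, -29.8 for Axl, 3.89 for Ajuba and -2.91 for Yap1. An exact two-sided permutation test over 2 against 2 libraries cannot go below p = 0.33, which is the value it gave for each of the 5 genes. Without thinning the differences were -29.3, -38.4, -40.6, 12.9 and -16.9 points.

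The members were then compared between tumour states inside a library, where treatment is the same. Control 1 and NP137 1 held at least 50 cells on both sides of the split. Of the 10 genes, 8 were higher on the mesenchymal side and passed the test, Ajuba was lower and passed, and Yap1 did not pass (edgeR's quasi-likelihood test with library as a term, adjusted p under 0.05). Of all 13159 genes tested 25.7% passed, 13.2% higher and 12.5% lower, and the median log2 difference was 1.16 over the members and -0.08 over all genes. This fit has 4 sums and 1 residual degree of freedom, so its spread is borrowed almost wholly from other genes.

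Ctgf stood at 18.9 CPM on the epithelial side and 166.9 CPM on the mesenchymal side of control 1, and at 17.8 and 52.4 CPM in NP137 1. Its log2 difference was 2.38 ± 0.28 (SE, 2 libraries, adjusted p = 3.7e-15 with edgeR). The NP137 1 value on the mesenchymal side rests on 31 UMIs in 121 cells. When cells were split one by one, in place of clusters, the Ctgf difference was 1.65 with an adjusted p of 0.38 (edgeR). In that split NP137 1 held 17.9 CPM (exact Poisson interval 16.3 to 19.6) on the epithelial side. Its mesenchymal side held 24.6 CPM (19.1 to 31.2), and these intervals overlap. The Ctgf gap in the treated library thus depended on how the cells were split. Cyr61 rose from 158.4 to 518.5 CPM in control 1 and from 111.1 to 584.6 CPM in NP137 1, a difference of 1.97 ± 0.25 (adjusted p = 1.8e-13 with edgeR). In both genes the epithelial-side cells of the 2 libraries lay nearer to each other than to the mesenchymal side of their own library.

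Axl stood at 130.5 and 291.8 CPM on the epithelial and mesenchymal side of control 1 and at 100.2 and 199.4 CPM in NP137 1 (difference 1.00 ± 0.24, adjusted p = 3.6e-04 with edgeR). Wwtr1 stood at 104.2 and 245.9 CPM and at 82.6 and 256.8 CPM (1.352 ± 0.245, adjusted p = 5.3e-07). Tead1 stood at 55.1 and 125.1 CPM and at 38.0 and 98.0 CPM (1.19 ± 0.25, adjusted p = 2.6e-05). In these 3 genes the mesenchymal side was higher in the treated library as well as in the control one. Amotl2 stood at 8.44 and 20.5 CPM and at 7.45 and 15.2 CPM (1.13 ± 0.39, adjusted p = 0.017), and Lats2 at 13.003 and 23.0 CPM and at 5.92 and 18.6 CPM (1.06 ± 0.37, adjusted p = 0.020). The last 2 rest on 9 and 11 UMIs on the mesenchymal side of NP137 1, and neither passed with DESeq2, where 13% of all genes did.

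Ajuba was the only member that was lower on the mesenchymal side and passed the test, going from 97.6 to 14.9 CPM in control 1 and from 50.4 to 22.0 CPM in NP137 1, a log2 difference of -2.29 ± 0.30 (adjusted p = 1.5e-12 with edgeR). Yap1 was also lower there in both libraries, with 36.9 against 52.7 CPM in control 1 and 38.9 against 46.2 CPM in NP137 1, but did not pass, with a difference of -0.47 ± 0.28 (adjusted p = 0.22). Ankrd1 passed with a difference of 4.59 ± 0.53 (adjusted p = 2.3e-16), but from control 1 alone, with 13 UMIs (2.20 CPM) on the epithelial and 2069 UMIs (46.4 CPM) on the mesenchymal side. NP137 1 held 1 and 2 Ankrd1 UMIs, too few for a ratio. With no doublets removed 2 members passed, Ctgf and Cyr61, where 1.79% of all genes did.

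The dissociation genes moved with the states as well. Their 17 members summed to 11804 CPM on the epithelial and 13282 CPM on the mesenchymal side of control 1, and to 8788 and 15867 CPM in NP137 1, and 9 of 17 were higher and 1 lower past the threshold. Egr1 was higher by 1.82, Fosb by 1.45 and Nr4a1 by 1.09 log2 units. The mesenchymal-side cells of NP137 1 were also shallow, with a median of 3169 UMIs. The part of either in the members' differences was not tested.

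Other pathway genes split between the states. Of 23 Hippo genes 8 were higher and 4 lower on the mesenchymal side past the threshold, with a median log2 difference of -0.40. The 3 of smallest p were Frmd6, an upstream FERM protein, at 1.78, Fat4, the protocadherin that pairs with Dchs1, at 3.89, and Stk3, the MST2 kinase, at 1.496. Of 15 other YAP targets 7 were higher and 3 lower, among them Tgfb2 at 2.66, Igfbp3, a binding protein of insulin-like growth factors, at -1.75 and Gadd45a, a growth arrest gene, at 1.47. Of the 10 genes under serum response factor 6 were higher and 0 lower, led by Tagln at 2.72, Myl9 at 1.84 and Acta2 at 1.49.

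**Figure D2:**
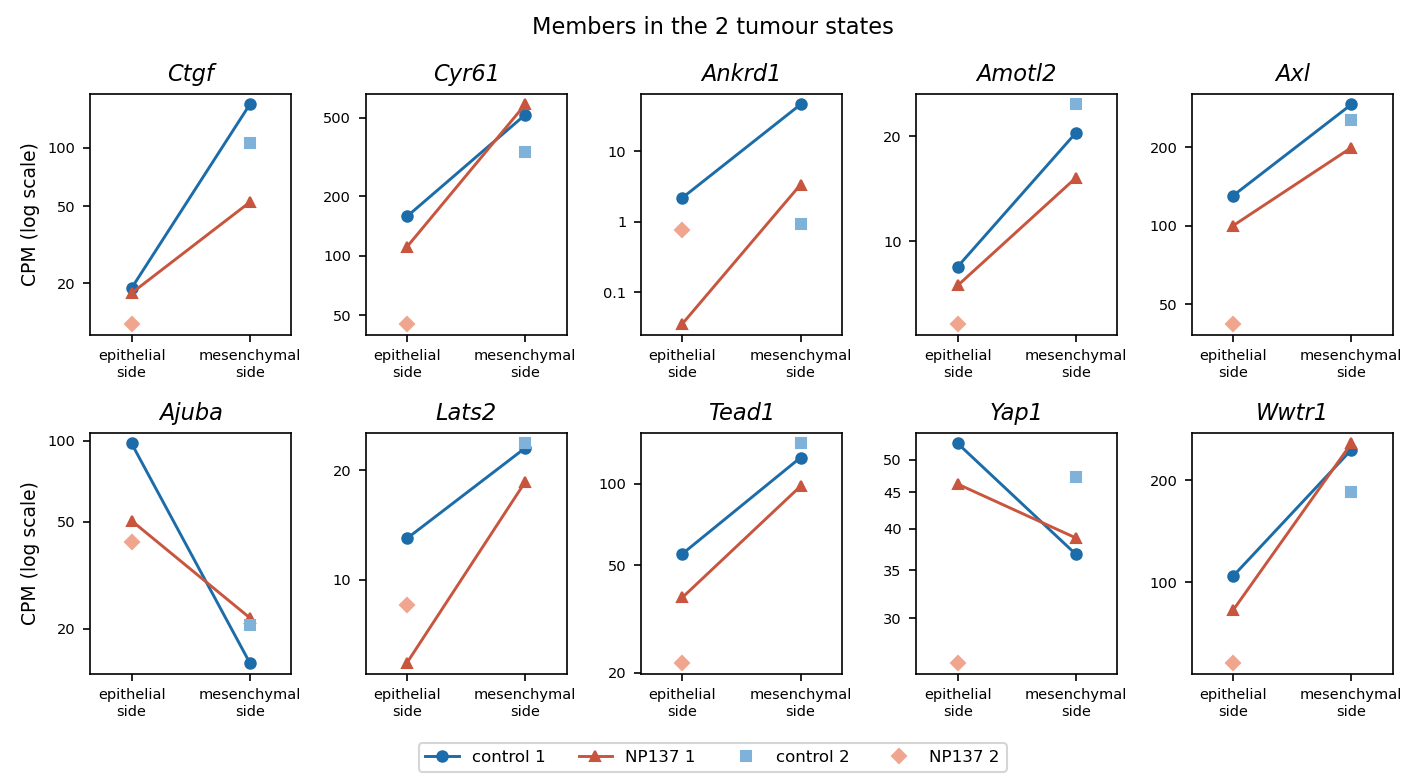
CPM of each gene (log axes, 1 scale per panel) on the epithelial and mesenchymal side of the tumour cells; lines join the 2 sides of control 1 and of NP137 1, and single points are control 2 (mesenchymal side) and NP137 2 (epithelial side). Ajuba falls along both lines, from 97.6 to 14.9 CPM and from 50.4 to 22.0 CPM, and 8 other genes lie higher on the mesenchymal side of both, Ankrd1 in NP137 1 from 1 and 2 UMIs.

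The mesenchymal-side cells of NP137 1 were checked against fibroblasts, with which they share state genes. They held 1003.6 CPM of YFP against 47.3 CPM in fibroblast-like cells of the same library, and 1735 CPM of Cdkn2a, a cell-cycle inhibitor gene high in tumour cells here, against 32.9 CPM. The 10 fibroblast markers summed to 5217 CPM in them and to 39531 CPM in the fibroblast-like cells, against 8912 and 5591 CPM on the mesenchymal side of the controls. Among these markers Clec3b stood at 1.69 against 161.6 CPM, Lum at 18.6 against 998.3 CPM and Col3a1 at 1685 against 11090 CPM. Pdgfra stood at 62.5 against 321.1 CPM, and Dpt at 38.9 against 201.7 CPM. Dpt was thus above its level on the mesenchymal side of both controls, 19.0 and 3.02 CPM, and the part of fibroblast RNA in these cells was not tested. The 12 epithelial state genes summed to 1678 CPM in these cells, against 293.6 and 249.4 CPM on the mesenchymal side of control 1 and control 2. Krt14, an epithelial keratin, stood at 1164 against 173.4 and 144.0 CPM. The part of epithelial RNA in these cells was not tested either. These cells shared 1 barcode with mesenchymal-side cells of control 1. In NP137 1, 10.2% of tumour cells lay within 1 log2 unit of the split, against 1.45% to 3.21% in the other libraries.

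Tumour clusters within a state also differed. Cluster 24, the epithelial-side cluster nearest to the split (log2 of mesenchymal over epithelial genes -0.36), held 213.5 CPM of Axl, 180.0 CPM of Cyr61 and 149.8 CPM of Wwtr1 in NP137 1. Cluster 5, led by keratins, held 71.9, 93.5 and 65.7 CPM of the same genes in that library. Ctgf stood at 12.6 CPM in cluster 24 and 19.4 CPM in cluster 5, both within the T or NK-like range of 10.5 to 20.4 CPM. Ajuba stood at 38.8 and 52.9 CPM in the same order. On the mesenchymal side of control 1, cluster 18 held 236.9 CPM of Ctgf and 34.5 CPM of Ankrd1, and cluster 3 held 128.5 and 52.4 CPM. Cluster 15, nearly all from control 2, held 107.0 CPM of Ctgf and 0.902 CPM of Ankrd1 there. These are sums over cells of 1 library each and carry no test.

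Control 2 and NP137 2 each held nearly only 1 state. On the mesenchymal side control 2 stood at 106.2 CPM for Ctgf, 335.7 CPM for Cyr61, 255.5 CPM for Axl and 20.6 CPM for Ajuba. On the epithelial side NP137 2 stood at 12.4, 45.3, 42.1 and 41.9 CPM for the same genes. For 8 members, all but Lats2 and Ankrd1, NP137 2 was the lowest of the 3 libraries with at least 50 epithelial-side cells. The share of all genes that were lowest in NP137 2 was not counted. Whether this position is particular to the members was therefore not tested.

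Across all cells of the tumours, each of the 10 members had its highest median outside the tumour cells. That tumour median spans control and treated libraries, which held mostly different states, and cluster 7 lacks control 2 and cluster 13 lacks NP137 2. In the controls alone Tead1 stood at 116.9 and 139.9 CPM in tumour cells against 104.1 and 90.0 CPM in fibroblast-like cells. Ctgf stood there at 149.5 and 104.9 CPM against 660.3 and 352.6 CPM. Levels below are the lowest, median and highest CPM over the libraries with at least 50 cells of a class. Ctgf was highest in cluster 7, a stromal cluster led by Gzme and Mmp13 (319.5, 436.9 and 1249), and in fibroblast-like cells (352.6, 414.2 and 660.3). Tumour cells came sixth (12.8, 61.7 and 149.5), behind endothelial-like cells (63.6, 95.5 and 121.9), whose range theirs overlapped. Cyr61 was highest in cluster 13, a cluster led by Apod and Coch (1144, 1153 and 1304), followed by cluster 7 (825.0, 851.8 and 1144) and fibroblast-like cells (741.5, 781.6 and 1136). The lowest value of cluster 13 and the highest of cluster 7 lay less than 1 CPM apart. Amotl2 was highest in fibroblast-like cells (65.7, 74.9 and 82.4), and its 3 stromal classes lay clear of endothelial-like cells (24.3, 32.8 and 44.5).

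Wwtr1 and Lats2 led in the endothelium. Wwtr1 stood at 344.8, 377.5 and 413.4 CPM in endothelial-like cells, clear of every other class, and Lats2 at 37.8, 52.1 and 77.6 CPM, overlapping cluster 7, cluster 13 and pericyte or smooth muscle-like cells. Ajuba was highest in pericyte or smooth muscle-like cells (37.8, 65.4 and 74.4), epithelial-like cells outside the tumour clusters (34.2, 42.4 and 56.2) and tumour cells (20.9, 33.2 and 49.8). These classes overlapped each other and lay clear of endothelial-like cells (10.2, 13.9 and 18.3). Fibroblast-like cells held 5.15 to 9.38 CPM of Ajuba, the lowest of the solid-tissue classes at the median.

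Axl reached similar levels in pericyte or smooth muscle-like cells (124.6, 216.7 and 275.7), tumour cells (42.3, 177.3 and 272.9) and fibroblast-like cells (135.8, 167.1 and 198.7), and was the only member with over 100 CPM at the median in macrophage or monocyte-like cells (69.2, 112.9 and 166.7), where it clears dying cells. Tead1 had medians of 78.0 CPM in tumour cells to 109.2 CPM in cluster 7 over the tumour and stromal classes, with overlapping ranges, and 39.7 CPM in endothelial-like cells. Yap1 varied least, with medians of 32.6 to 43.9 CPM over the 7 epithelial, tumour, stromal and endothelial classes, each overlapping its neighbour in the order, and 1.58 to 11.3 CPM in the blood-derived classes. Ankrd1 had low medians in every class, up to 8.87 CPM, but was high in single libraries. It reached 41.2 CPM in tumour cells of control 1, 46.6 CPM in fibroblast-like cells of NP137 2 and 166.1 CPM in cluster 7 of NP137 2.

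**Figure D3:**
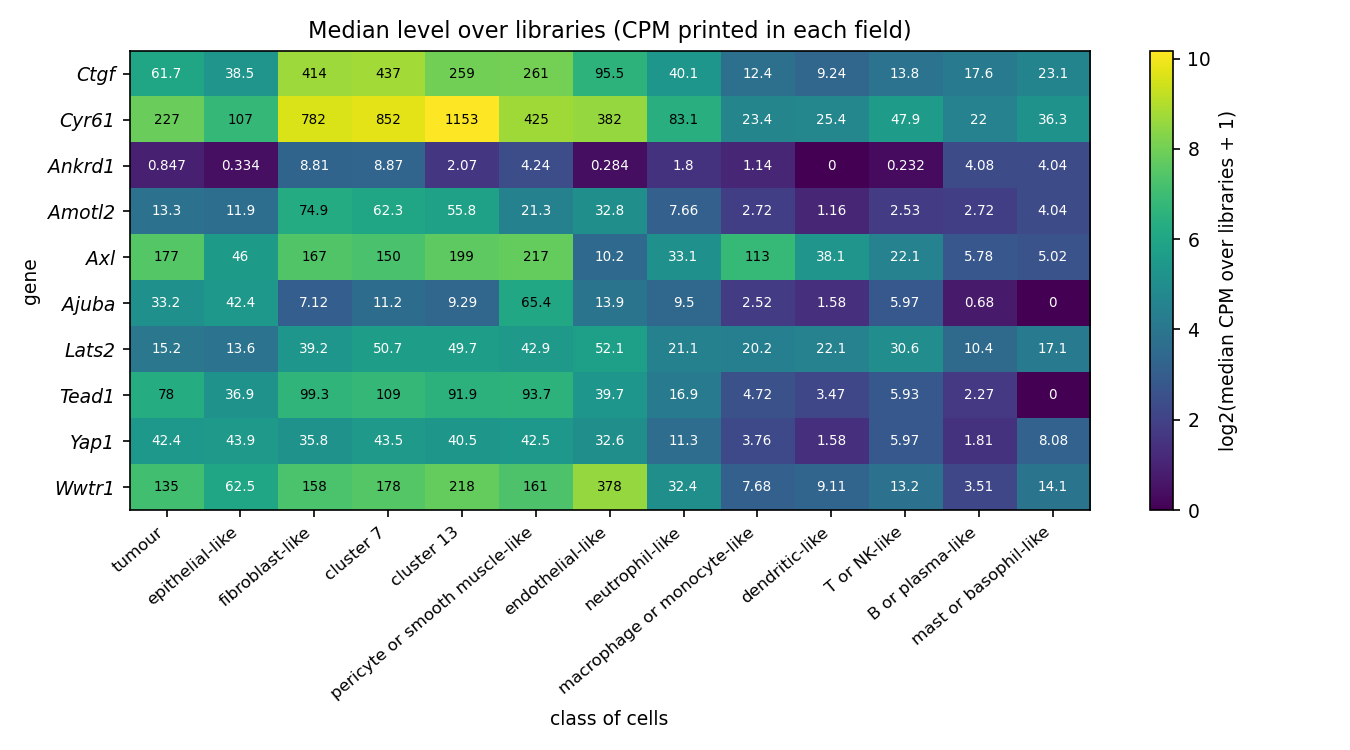
Median CPM over libraries of each gene (rows) in each class of cells (columns), with the colour on a log2(CPM + 1) scale and the CPM printed in each field. Yap1 holds 32.6 to 43.9 CPM in the 7 classes on the left, while Wwtr1 peaks at 378 CPM in endothelial-like cells and Cyr61 at 1153 CPM in cluster 13.

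Tumour cells were set against fibroblast-like cells of the same library, 449, 61, 234 and 3062 cells in control 1, control 2, NP137 1 and NP137 2. Ctgf, Cyr61, Amotl2 and Lats2 were lower in tumour cells and Ajuba was higher, 5 of 10 past an adjusted p of 0.05, against 22.8% of 15064 genes (12.3% higher, 10.5% lower; edgeR with library as a term). The log2 differences were -3.33 ± 0.64 for Ctgf (SE, 4 libraries, adjusted p = 0.020), -2.27 ± 0.49 for Cyr61 (0.026), -2.62 ± 0.38 for Amotl2 (0.0083), -1.68 ± 0.42 for Lats2 (0.037) and 2.12 ± 0.39 for Ajuba (0.015). The median over all genes in this fit was 0.13, so these differences are relative to a small shift. Each of the 5 kept its sign in all 4 libraries: the log2 ratio of CPM ran from -5.15 to -1.75 for Ctgf and from 1.39 to 3.27 for Ajuba. Without NP137 1 none of the 5 passed, with adjusted p from 0.063 to 0.12. The other 5 members did not pass, with differences of -0.33 ± 0.36 for Axl, -0.67 ± 0.46 for Tead1, -0.25 ± 0.22 for Wwtr1, 0.11 ± 0.19 for Yap1 and -2.42 ± 2.15 for Ankrd1.

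Axl, Tead1 and Wwtr1 changed sign with treatment in this comparison. Their tumour cells lay above fibroblast-like cells in both controls, by 0.46 and 0.55 log2 units for Axl, 0.17 and 0.64 for Tead1 and 0.39 and 0.16 for Wwtr1. In both NP137 libraries they lay below, at -0.66 and -1.68 for Axl, -1.30 and -2.19 for Tead1 and -0.80 and -0.74 for Wwtr1. The test of that difference, a class-by-treatment term, did not pass for these 3 (adjusted p = 0.18, 0.077 and 0.42 with edgeR).

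The same term passed for Ctgf and Ankrd1, 2 of 10 members, both lower, against 1.79% of all genes (0.319% higher, 1.47% lower). For Ctgf the NP137 difference was 2.51 ± 0.44 log2 units more negative in tumour than in fibroblast-like cells (interaction -2.51, adjusted p = 0.024 with edgeR). Fibroblast-like cells held 660.3 and 352.6 CPM in the controls and 374.6 and 453.8 CPM with NP137, which overlap. For Ankrd1 the term was -7.93 ± 0.68 (adjusted p = 0.0022 with edgeR), and fibroblast-like cells stood at 9.38 and 0 CPM in the controls and 8.23 and 46.6 CPM with NP137, the 0 in control 2 being 0 of 61 cells' UMIs. Neither call held with no doublets removed, where the terms were -1.13 for Ctgf and -4.08 for Ankrd1 and 0.244% of all genes passed, or at a finer clustering, where they were -2.48 and -7.41 and 0.0598% passed. The Ctgf call was also lost with the stricter cell filter (-2.49) and with the members among the clustering genes (-2.42).

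The lists gave few calls in this term. Of 23 Hippo genes 0 were higher and 1 lower, Dchs1 at -3.86, and of 15 other YAP targets 0 were higher and 1 lower, Tgfb2 at -2.48. Of 10 genes under serum response factor 2 were lower, Cnn1 at -5.58 and Tagln at -4.10, and of 17 dissociation genes 0 passed. In tumour against fibroblast-like cells, 2 Hippo genes were higher and 2 lower, among them Tead4 at 4.91, Wwc1, an upstream scaffold also called KIBRA, at 4.37 and Vgll3, a TEAD cofactor, at -3.86. Of the other YAP targets 3 were higher and 4 lower, among them Myof at 1.28, F3, the tissue factor gene, at -2.14 and Ccdc80 at -6.30. Of the dissociation genes 1 was higher and 8 were lower, so fibroblast-like cells held more of them, and their part in the members' differences was not tested.

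**Figure D4:**
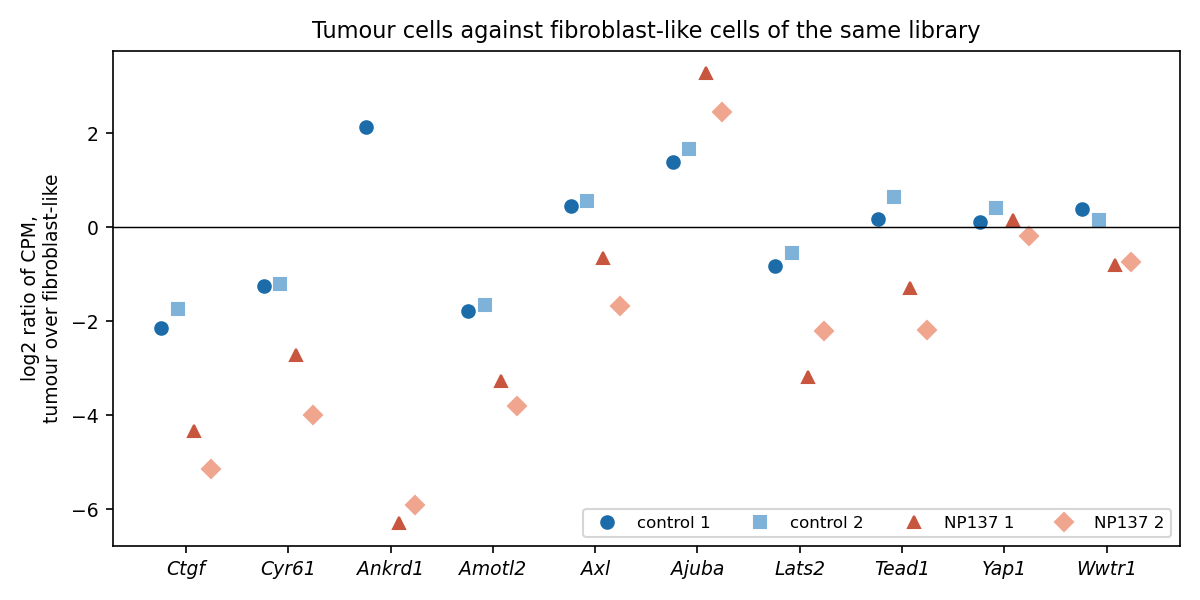
Log2 ratio of CPM in tumour over fibroblast-like cells of the same library, 1 point per library and gene (Ankrd1 has no point for control 2, where the fibroblast-like cells held no UMI). Ajuba lies above 0 in all 4 libraries (1.39 to 3.27) and Ctgf below 0 (-5.15 to -1.75), while Axl, Tead1 and Wwtr1 lie above 0 in the controls and below it with NP137.

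Outside the tumour cells no member passed the test of NP137 against control, and no gene did in fibroblast-like, epithelial-like or endothelial-like cells (0% of 10447, 11377 and 9418 genes with edgeR at an adjusted p of 0.05). At an unadjusted p under 0.05, 465, 879 and 860 genes passed there, and DESeq2 called 5, 30 and 2. In fibroblast-like cells no member had an unadjusted p under 0.05 (4.45% of all genes did). Cyr61 stood there at 1136 and 772.8 CPM in the controls and 790.4 and 741.5 CPM with NP137, a difference of -0.30 ± 0.27, and Wwtr1 at 175.3 and 164.7 CPM against 150.3 and 96.6 CPM.

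In epithelial-like cells outside the tumour clusters all 9 members tested were lower with NP137. Their median log2 difference was -0.54, against -0.03 over all genes. This class is set by cluster, and single cells with a YFP UMI were not removed from it. Ctgf stood at 50.1 and 54.3 CPM in the controls and 20.8 and 26.9 CPM with NP137 (-1.01 ± 0.31, adjusted p = 0.58 with edgeR), near the T or NK-like range in both treated libraries. Cyr61 stood at 235.9 and 116.1 CPM against 98.3 and 38.0 CPM (-1.09 ± 0.51, adjusted p = 0.64), and among the alternatives run it passed only when the sample number was a block, at 0.013, where 1.55% of all genes did. At an unadjusted p under 0.05, 2 of 9 members were found here, Ctgf and Axl, against 7.73% of all genes. The NP137 2 sum comes from 65 cells. Other lists moved with treatment in this class: the 6 neutrophil markers summed to 401.8 and 694.2 CPM in the controls and to 1662 and 6040 CPM with NP137, and the 11 mesenchymal state genes to 1454 and 1229 CPM against 435.3 and 603.6 CPM. The 17 dissociation genes summed to 15522 and 16648 CPM against 12509 and 11532 CPM. The part of these in the members' values was not tested. In endothelial-like cells Ctgf was higher with NP137, with 81.1 and 63.6 CPM in the controls and 109.9 and 121.9 CPM treated (0.75 ± 0.22, adjusted p = 0.54), while Yap1 stood at 41.3 and 50.5 CPM against 21.8 and 23.8 CPM (-0.95 ± 0.28, adjusted p = 0.54). Axl stood at 30.2 and 14.4 CPM against 5.88 and 3.40 CPM in these cells, from 38, 32, 7 and 6 UMIs. Unadjusted p-values under 0.05 were found for 4 of 9 members there, 3 lower and 1 higher, against 9.13% of all genes.

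Yap1 showed a split inside 1 library that its mean hides. NP137 1 holds cells with Xist and cells with Y-linked RNA, and on the epithelial side of its tumour cells 479 had Xist alone, 1118 Y-linked UMIs alone, and 1458 neither or both. Yap1 stood at 177.5 CPM in the first and 20.7 CPM in the second, from 720 and 254 UMIs, a ratio of 8.56 (exact 95% interval 7.41 to 9.92, counting error only). Among the 5377 genes with a mean of at least 20 CPM, 5 had a log2 ratio at least that of Yap1, counting Yap1, and the median log2 ratio was -0.10. After thinning to 2000 UMIs, 16.8% (13.5 to 20.6) of 452 Xist-alone cells and 5.201% (3.96 to 6.69) of 1096 Y-alone cells held a Yap1 UMI. In epithelial-like cells outside the tumour clusters of the same library Yap1 stood at 38.8 and 32.2 CPM. In fibroblast-like cells with cluster 7 it stood at 37.9 and 41.0 CPM, so the gap was seen in tumour cells and not in these 2 classes. This split was chosen after the values were seen.

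The neighbours of Yap1 on chromosome 9 went with it. Of 37 genes within 8 Mb and with a mean of at least 5 CPM, 11 had a log2 ratio above 2, and all 11 lay between 0.82 Mb on one side and 1.24 Mb on the other side of the Yap1 start. They include Dcun1d5, a regulator of cullin neddylation, at 1012 CPM in Xist-alone and 135.6 CPM in Y-alone cells, Tmem123 at 198.9 and 28.9 CPM, and Arhgap42 at 95.7 and 15.1 CPM. The apoptosis inhibitors Birc2 and Birc3, next to Yap1, stood at 49.1 and 4.41 CPM and at 38.2 and 4.74 CPM. The 2 remaining genes of that stretch, Mmp13 and Mmp3, had ratios of 2.74 and 2.10. Outside it ratios ran from 0.669 to 1.59. Copy number was not measured, as the files hold RNA counts alone.

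**Figure D5:**
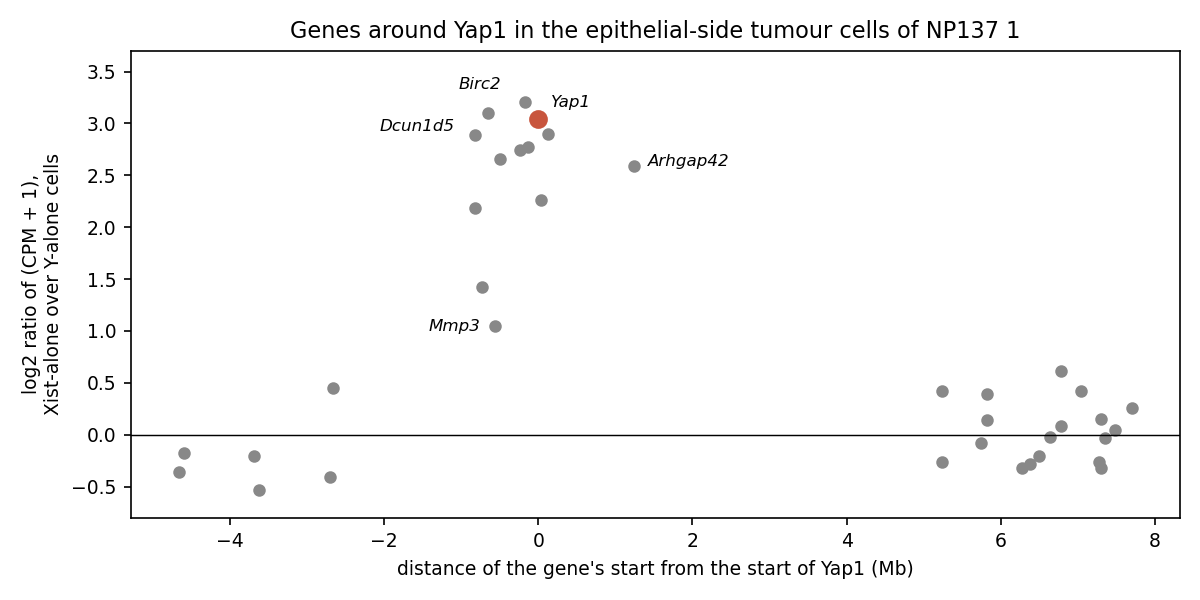
Log2 ratio of (CPM + 1) in Xist-alone over Y-alone cells, for the epithelial-side tumour cells of NP137 1, against the distance of each gene's start from that of Yap1 in Mb (37 genes; Yap1 in red). The genes from -0.82 to 1.24 Mb lie above the others, 11 of them above 2, and genes farther away lie near 0.

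The other members did not all follow Yap1 in these cells. Cyr61 stood at 219.4 CPM in the Xist-alone and 89.5 CPM in the Y-alone cells, a ratio of 2.45 (2.24 to 2.68), Ctgf at 24.9 and 15.9 CPM (1.56, interval 1.22 to 2.00) and Ajuba at 69.8 and 47.4 CPM (1.47, 1.27 to 1.70). Axl was lower in the Xist-alone cells, at 57.9 against 112.5 CPM (0.515, 0.447 to 0.592), as was Wwtr1 at 59.7 against 92.6 CPM (0.644, 0.559 to 0.741). Tead1 stood at 38.5 and 38.9 CPM, Amotl2 at 8.63 and 7.84 CPM and Lats2 at 6.41 and 5.71 CPM, each with an interval that includes 1. Ankrd1 had no UMI in either. In epithelial-like cells outside the tumour clusters, Cyr61 stood at 104.7 and 107.5 CPM and Ctgf at 18.2 and 19.3 CPM. The intervals compare cells of 1 library and are no test over animals.

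Over the 44 sums of a class in a library with at least 50 cells, the genes most like each member were read among 6284 genes with a mean of at least 20 CPM (Pearson r of log2(CPM + 1), members left out). The points share libraries and depth, and r describes these sums only. Ctgf was nearest to Fstl1, Serpinh1 and Bmp1, with r from 0.92 to 0.93, and Cyr61 to Serpinh1, Fkbp9 and Nectin3, from 0.93 to 0.94. Amotl2 was nearest to Plat, Bmp1 and Phldb2 (0.89 to 0.91), Axl to Itgb5, Lrp1 and Vcan (0.85 to 0.87) and Lats2 to Itgb3, Col15a1 and C1qtnf6 (0.78 to 0.83). Tead1 was nearest to Ghr, Tnks1bp1 and Pxdn (all 0.92), Wwtr1 to Lamb1, Cavin3 and Synpo (0.94 to 0.95), Yap1 to Zcchc14, Hspb8 and Cttn (0.89 to 0.90) and Ajuba to Hspb1, Jag1 and Emp2 (0.87 to 0.88). Ankrd1 had no close match, the nearest being Ltbp2 at 0.66. Among the members, Ctgf, Cyr61 and Amotl2 were close to each other (0.89 to 0.92), Ajuba was closest to Yap1 (0.79), and Ajuba and Ankrd1 showed no relation (r = 0.00).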

How the data were processed

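Per the file headers and the submitters' processing notes, the authors made the deposited matrices with 10x software 3.0.2 on mm10 and used Seurat 3.1.5, and the values are UMI counts per gene and barcode, with no normalization. No per-sample column was left unused. Barcodes had to show 200 genes or more, and their mitochondrial share had to lie below 20%. The barcodes with the highest Scrublet scores, 0.8% per 1000 barcodes, were removed as doublets. Cells were clustered with scanpy 1.11.5 and leidenalg 0.10.2 (2000 variable genes without the members and their pathway lists, 30 components, 15 neighbours, resolution 1). A cluster counts as tumour where 50% of its cells or more hold a UMI of YFP. Other clusters were named from marker lists, and clusters 7, 13 and 27 stayed unnamed. Counts were summed per library and class with at least 50 cells and tested with edgeR 4.0.16 (quasi-likelihood, TMM, filterByExpr, Benjamini-Hochberg, R 4.3.3). DESeq2 1.42.0, other size factors, no filter, left-out libraries, a replicate block, stricter cell filters (500 genes, 10% mitochondrial), no doublet removal, resolution 2, members among the clustering genes, tumour cells by a YFP UMI, a per-cell state split and other thinning were tried. For the state comparison the alternatives other than the per-cell split, and for shares the left-out libraries, were chosen after seeing the data. The fits were tested on simulated data. Intervals are exact, at 95%, and cover counting error only.

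All 10 members are named whatever their p, of each list the 3 genes of smallest p per comparison, and for likeness the 3 of highest r. Neighbours of Yap1 are those the text turns on, chosen after their values were seen. The members and lists were chosen with earlier results of these data known. Sample numbers share no stated source, so they were not taken to pair libraries.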

Additional observations from a re-analysis of the deposited data

Results flagged for a closer look

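The difference between NP137 and control itself differed between tumour and fibroblast-like cells for 2 of the 10 genes, by an interaction term in edgeR over 2 libraries per group. For Ctgf the term was -2.51 on the log2 scale (adjusted p = 0.024): the tumour cells of both NP137 libraries lay below both controls, while the fibroblast-like values overlapped. For Ankrd1 it was -7.93 (adjusted p = 0.0022): the control tumour level comes from 1 library, and fibroblast-like cells of control 2 held no UMI. Both Ctgf values of treated tumour cells lay within the range of T or NK-like cells, 10.5 to 20.4 CPM. Neither call held with no doublets removed, where the terms were -1.13 for Ctgf (adjusted p = 0.28 with edgeR) and -4.08 for Ankrd1 (adjusted p = 0.071), or at resolution 2, where they were -2.48 (adjusted p = 0.11) and -7.41 (adjusted p = 0.058). Over all alternatives run the adjusted p ran up to 0.28 for Ctgf and up to 0.071 for Ankrd1.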

How the results depend on the processing

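With 2 libraries per group, counts of called genes moved widely. In tumour cells NP137 against control gave 1 gene, 2292 with DESeq2, 1270 with no filter, 0 with no doublets removed, 0 in cells with a YFP UMI, and 0 to 512 with 1 library left out (512 without control 1, 76 without NP137 1). Fibroblast-like cells gave 0, with DESeq2 5, with no filter 188, and 0 to 91 with 1 library left out. Epithelial-like cells gave 0, with DESeq2 30, with no filter 188, with no doublets removed, resolution 2 or the members among the clustering genes 1 each, and 1 to 190 with 1 library left out. Endothelial-like cells gave 0, with DESeq2 2, with no filter 154, and 0 to 23 with 1 library left out. Tumour against fibroblast-like cells gave 3432, and 786 to 2166 with 1 library left out. The interaction gave 270, with DESeq2 782, with no filter 1342, with strict cell filters 90, with no doublets removed 39, at resolution 2 9, with the members among the clustering genes 117, and 618 to 1627 with 1 library left out. The states gave 3387, split per cell 1361, with DESeq2 1702 and with no doublets removed 246.

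The share differences at 1000 UMIs and with no thinning were -8.46 and -29.3 points for Ctgf, -21.6 and -38.4 for Cyr61, -17.1 and -40.6 for Axl, 1.12 and 12.9 for Ajuba and -0.62 and -16.9 for Yap1. With 1 library left out they ran from -16.7 to -9.43 for Ctgf, -36.5 to -25.4 for Cyr61, -34.4 to -25.2 for Axl, 2.68 to 5.11 for Ajuba and -3.99 to -1.84 for Yap1.

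Differences near 0 changed sign. In tumour cells Yap1 was 0.0011 with DESeq2, 0.0034 with its size factors, 0.0002 with strict filters, 0.0073 with no doublets removed, 0.10 without control 2 and 0.29 without NP137 2. In fibroblast-like cells without control 1, Ctgf was 0.30, Cyr61 0.056, Ajuba 0.11 and Yap1 0.021; Tead1 was -0.063 without control 2, and Yap1 0.0073 with no filter and 0.22 without NP137 2. Lats2 in epithelial-like cells was 0.14 without NP137 1, and Ajuba in endothelial-like cells 0.044 without control 1 and 0.059 without NP137 2. In tumour against fibroblast-like cells Axl was 0.058 without NP137 2 and Yap1 -0.032 without control 2. The Yap1 interaction was -0.041 with DESeq2, -0.039 with its size factors, -0.36 without control 1 and -0.20 without NP137 1. Over the left-out libraries the lowest or highest value at the other end was -0.46 for Yap1 in tumour cells; in fibroblast-like cells -0.67 for Ctgf, -0.57 for Cyr61, -0.65 for Ajuba and 0.21 for Tead1; -0.89 for Lats2 in epithelial-like and -0.51 for Ajuba in endothelial-like cells; -0.68 for Axl and 0.16 for Yap1 against fibroblast-like cells; and 0.25 for the Yap1 interaction. The cause was not tested.

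Same-numbered libraries shared a number only: their deviations correlated at 0.027 in tumour, 0.12 in fibroblast-like, 0.14 in epithelial-like and -0.004 in endothelial-like cells. The replicate block gave 0 called genes in tumour cells and 176 in epithelial-like cells. The strict cell filter was not run in epithelial-like cells, where a library held under 50 cells.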
